A study of Rattus norvegicus with 12 samples.

Results

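The Fos and Jun families of transcription factors have 7 members in the rat (Fos, Fosb, Fosl1, Fosl2, Jun, Junb and Jund), and their mRNA was followed here in the dorsal striatum of lesioned rats given L-DOPA, stimulation of the subthalamic nucleus, or both. They were taken as every gene whose name in the array files is one of these, which gave 7 of 35623 genes, 8 of 41012 probes and 17 spots per array. Jun had 1 probe printed in 10 spots, Jund had 2 probes, and each other member had 1 probe in 1 spot. All 12 rats were male and had been lesioned on one side by 9 µg of 6-OHDA, which kills dopamine neurons, injected into the left substantia nigra pars compacta. The 3 rats of the 6-OHDA group received nothing further. The 3 rats of the HFS group had their subthalamic nucleus, on the lesioned side, stimulated at 130 Hz (pulses of 80 µs, 60 µA) for 5 days. The 3 rats of the DOPA group were injected 2 times daily, 12 h apart, with 25 mg/kg of L-DOPA and 12.5 mg/kg of benserazide during 19 days, and the 3 rats of the DOPA/HFS group received both treatments. For these arrays the study's methods describe electrode implantation in the HFS and DOPA/HFS groups, and no vehicle injection in rats without L-DOPA. Stimulation therefore cannot be told apart from implantation, nor L-DOPA from repeated injection. Per the study's methods, L-DOPA rats were killed one dosing interval after their last injection, and stimulated rats as soon as the stimulator was switched off, so the state seen is that at the end of a dosing interval and not the acute response to an injection. No unlesioned striatum was among the arrays analysed here. In pooled punches of tissue, fewer cells expressing a gene and less mRNA per cell cannot be told apart.

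Members of both families pair through leucine zippers to form AP-1, a factor that binds DNA at TGANTCA sites. Jun proteins can pair among themselves, whereas Fos proteins need a Jun partner. Fos, Fosb and Junb are immediate early genes, which neurons switch on within minutes of synaptic or dopamine receptor stimulation, and a stable splice product of Fosb, deltaFosB, is known to accumulate in the striatum of rats given L-DOPA repeatedly. Whether the Fosb probe separates that product from the full-length transcript is not given in the sources used here.

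Each rat had its own single-colour array, and signals are given as log2 values after quantile normalization, on which a difference of 1 is a 2-fold change. The 3 slides held 1 array of each group, with the slide number equal to the replicate number, and a group kept its place on the slide, so place and group cannot be told apart. Between 50.5% and 63.2% of spots were well above background on an array, and the range was 60% to 63.2% on the 6 arrays of stimulated rats against 50.5% to 58.9% on the other 6. DOPA/HFS replicate 3 had 4175 spots marked as outliers, against 2 to 25 on the others, but none of them belonged to a member. The striatal markers Ppp1r1b, Drd1a, Drd2 and Adora2a were well above background on 12 of 12 arrays. Among markers of other cells, the summed signal of 11 choroid plexus genes was 13.31 to 16.56 in the HFS group. It was 11.83 to 12.64 in 6-OHDA, 11.87 to 14.34 in DOPA and 12.02 to 12.49 in DOPA/HFS. The sum of 7 leptomeningeal genes was 12.79 to 13.63 in HFS and 11.84 to 12.86 in the rest. Of the 6 leptomeningeal genes tested, 4 were higher and 2 lower in HFS than in 6-OHDA, at a median difference of 0.13. Igf2, the brightest of the 6, differed by 0.96.

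Of the 7 members, 6 could be tested. Fosl1, a Fos relative best known outside the brain, was not well above background on any of the 12 arrays. Fos, Fosb, Jun, Junb and Jund were well above background on 12 arrays, and Fosl2 on 11, the exception being 6-OHDA replicate 2. No spot of a member was saturated. The 4 groups were fitted together with limma over 20404 genes, and a gene was called at an adjusted p (Benjamini-Hochberg) under 0.1 with a fold over 1.2 or under 0.8. None of the 6 tested members was called in any of 8 comparisons. The fit called 0% of genes in HFS vs 6-OHDA, DOPA/HFS vs 6-OHDA, DOPA/HFS vs DOPA, DOPA/HFS vs HFS, the HFS main effect and the interaction, and 0.0049% in DOPA vs 6-OHDA and in the L-DOPA main effect, where it called Igsf5 alone. The values below are therefore given as measured differences with their errors.

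Fos mRNA was low in every rat that had received L-DOPA, with or without stimulation, and this was the largest difference among the tested members. The log2 signal of Fos was 8.06, 7.92 and 9.85 in the 6-OHDA arrays and 9.08, 8.43 and 8.56 in the HFS arrays. It was 7.17, 7.26 and 7.62 in the DOPA arrays and 7.05, 7.20 and 6.85 in the DOPA/HFS arrays. All 6 arrays of L-DOPA rats lay below all 6 arrays of rats without L-DOPA, and the highest single value was that of 6-OHDA replicate 3. In order of their means the groups ran HFS (8.69 ± 0.35, SD, n = 3), 6-OHDA (8.61 ± 1.07), DOPA (7.35 ± 0.24) and DOPA/HFS (7.03 ± 0.18). The arrays of the first pair in this order overlapped, as did those of the last pair, whereas DOPA and 6-OHDA did not overlap.

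Compared with 6-OHDA, Fos differed by -1.26 in DOPA (SE 0.42, 95% confidence interval -2.19 to -0.33), 0.417 times the level, with an adjusted p of 1 in limma. In DOPA/HFS the difference was -1.58 (SE 0.42), 0.335 times the level, with an adjusted p of 1 in limma. Without 6-OHDA replicate 3 these differences were -0.64 and -0.96, and the arrays still did not overlap. Averaged over both levels of stimulation, the L-DOPA main effect on Fos was -1.46 (SE 0.30, confidence interval -2.11 to -0.80, adjusted p = 0.46 in limma), and -1.15 (adjusted p = 0.2 in limma) without 6-OHDA replicate 3. Within slides 1, 2 and 3 it was -1.46, -0.94 and -1.97. Of 18356 genes with a value on every array, 6, or 0.0327%, had all L-DOPA arrays below all others by more than the fold limit. Another 15, or 0.0817%, had all L-DOPA arrays above all others in this way. Fos had the largest difference among the 6 lower genes.

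Stimulation without L-DOPA left Fos at 0.08 from 6-OHDA (SE 0.42, confidence interval -0.85 to 1). Between arrays of the same slide, whose rats were not taken as pairs, the difference was 1.02, 0.5 and -1.29. The last is set against 6-OHDA replicate 3, the highest Fos array, and the mean difference became 0.70 without that array. Between DOPA/HFS and DOPA, Fos differed by -0.31 (confidence interval -1.24 to 0.61), lower on each slide, with overlapping arrays. DOPA/HFS against HFS gave -1.65 (SE 0.42, adjusted p = 1 in limma), with no overlap. The interaction, the difference between the HFS effects with and without L-DOPA, was -0.39 (SE 0.60) for Fos, and -1.01 without 6-OHDA replicate 3.

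**Figure D1:**
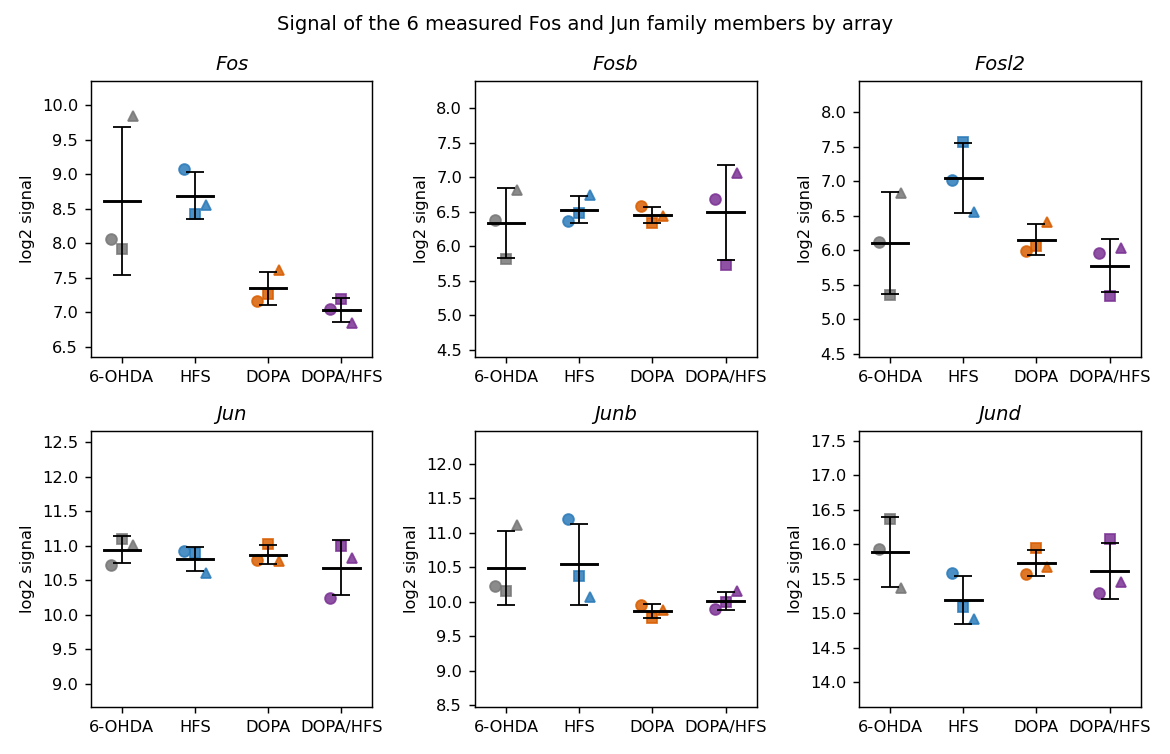
Log2 signal (y axis) of the 6 tested members in the 4 groups (x axis), each panel spanning 4 log2 units. Circles, squares and triangles are replicates 1, 2 and 3, and bars are the group mean and SD (n = 3). The 6 arrays of L-DOPA rats lie at 6.85 to 7.62 for Fos, below the other 6 at 7.92 to 9.85.

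Junb, the early-induced Jun protein and a common striatal partner of Fos, was lower on average in both L-DOPA groups as well, by a smaller amount. Its log2 signal was 10.22, 10.15 and 11.11 in 6-OHDA, 11.19, 10.37 and 10.06 in HFS, 9.95, 9.76 and 9.88 in DOPA, and 9.89, 9.99 and 10.15 in DOPA/HFS. The DOPA arrays lay below the 6-OHDA arrays without overlap, the DOPA/HFS arrays reached the lowest 6-OHDA array, and the HFS arrays spanned the 6-OHDA range. The difference from 6-OHDA was -0.63 in DOPA (SE 0.30, adjusted p = 1 in limma), -0.48 in DOPA/HFS and 0.05 in HFS. Without 6-OHDA replicate 3 the first was -0.32 and the second -0.17. The L-DOPA main effect was -0.58 (SE 0.21, adjusted p = 1 in limma), and -0.78, -0.38 and -0.57 within the 3 slides. Fos and Junb were thus the members lower in DOPA without overlap, 2 of 6, where 1.77% of genes were lower in this way and 2.1% higher, and Fos was the single member lower in DOPA/HFS, where these shares were 1.71% and 1.07%. No member was higher without overlap in either group.

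Junb varied from array to array much as Fos did. Over 12 arrays the correlation of Fos and Junb was r = 0.85 (Spearman rho 0.64), it was 0.78 after group means were removed, 0.75 without 6-OHDA replicate 3, and 0.56 without the 2 arrays farthest from the median of Fos. The points share slides, groups and normalization, so these are descriptions. Fosl2 followed Fos less closely (r = 0.65, rho 0.75, and 0.56 without the 2 farthest arrays). The non-member gene most like Fos was Dusp1, an early-induced phosphatase that switches off MAP kinases, with r = 0.883 over 12 arrays and 0.63 without the 2 farthest. Dusp1 was also the second gene in likeness to Junb (r = 0.858), after Apold1 (r = 0.896), an early gene of endothelial cells. The signal of Dusp1 was 10.38, 10.26 and 11.65 in 6-OHDA and 11.07, 10.58 and 10.02 in HFS. It was 9.84, 10.42 and 9.92 in DOPA and 9.49, 9.83 and 9.83 in DOPA/HFS, so that DOPA/HFS lay below 6-OHDA without overlap and DOPA did not.

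**Figure D2:**
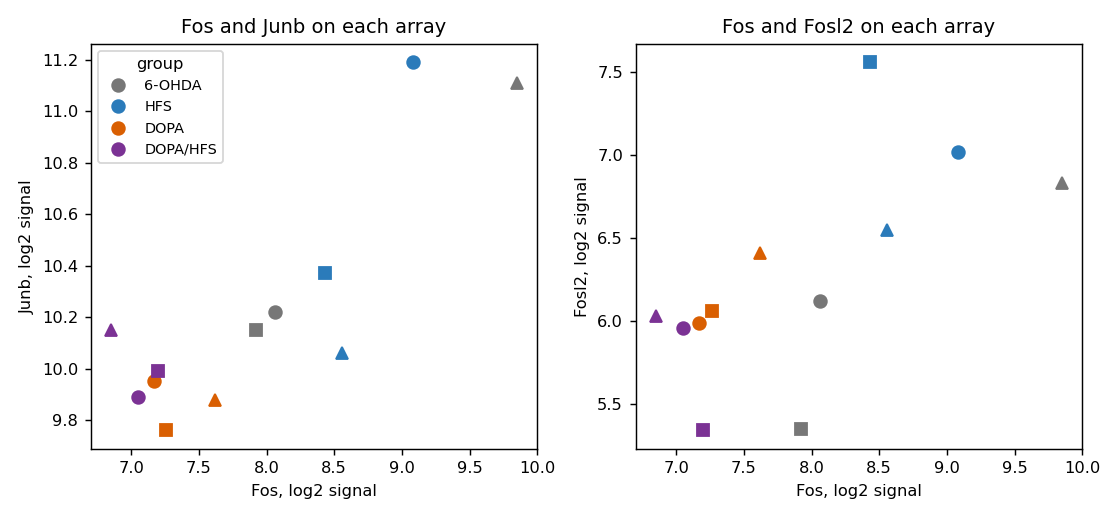
Log2 signal of Fos (x axis) against Junb (left, y axis) and Fosl2 (right, y axis), 1 point per array, coloured by group, with circles, squares and triangles for replicates 1, 2 and 3. Points of L-DOPA rats crowd at the low end of Fos. The upper right point of the left panel is 6-OHDA replicate 3, and the array with the highest Junb, 11.19, is HFS replicate 1.

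Promoter windows of 5 members, not of Fos or Jun, were in the RefSeq table used, and 3 are shown for the members whose signals differed most apart from Fos, as the 250 bases before the annotated start, on assembly GRCr8. They are Junb at chr19:40080876-40081125 on the plus strand, Fosl2 at chr6:30039270-30039519 on the minus strand, and Jund at chr16:18769772-18770021 on the minus strand. Capitals mark the full cAMP response element TGACGTCA, its core TGACG and the TATA box TATAAA, each sought on both strands.
Junb: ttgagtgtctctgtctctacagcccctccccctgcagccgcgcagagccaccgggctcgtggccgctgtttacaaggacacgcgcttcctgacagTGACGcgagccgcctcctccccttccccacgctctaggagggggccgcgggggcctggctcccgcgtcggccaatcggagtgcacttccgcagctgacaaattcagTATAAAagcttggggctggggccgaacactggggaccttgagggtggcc
Fosl2: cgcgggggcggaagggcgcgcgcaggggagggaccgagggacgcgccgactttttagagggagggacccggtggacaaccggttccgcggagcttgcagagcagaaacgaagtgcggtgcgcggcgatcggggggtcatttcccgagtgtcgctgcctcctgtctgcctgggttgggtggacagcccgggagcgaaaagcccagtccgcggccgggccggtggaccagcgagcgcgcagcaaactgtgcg
Jund: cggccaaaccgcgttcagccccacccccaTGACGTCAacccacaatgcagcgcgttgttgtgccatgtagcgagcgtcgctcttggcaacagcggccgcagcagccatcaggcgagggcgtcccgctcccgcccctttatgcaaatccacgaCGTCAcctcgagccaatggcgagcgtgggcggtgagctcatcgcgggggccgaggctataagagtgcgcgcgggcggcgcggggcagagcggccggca

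The Junb window held the core of the cAMP response element 155 to 151 bases before the start and a TATA box 49 to 44 bases before it. The Jund window held the full element 221 to 214 bases before the start, which contains the core on each strand, and another core 98 to 94 bases before it. The Fosl2 window held none of the motifs sought, which also included the AP-1 site TGANTCA and the CArG box of serum response factor, neither of them found in any of the 5 windows. Of 33465 promoter windows of 250 bases, 18.2% held the core, 1.59% the full element, 12.9% the TATA box, 6.34% the AP-1 site and 1.5% the CArG box. A match is a run of letters and no evidence of binding in these rats.

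Fosl2, a Fos relative induced more slowly than Fos, had its highest signal after stimulation alone. Its log2 signal was 7.02, 7.56 and 6.55 in HFS, against 6.12, 5.35 and 6.83 in 6-OHDA. It was 5.99, 6.06 and 6.41 in DOPA and 5.96, 5.34 and 6.03 in DOPA/HFS. The HFS arrays lay above all 6 arrays of L-DOPA rats but overlapped with 6-OHDA through replicate 3 of each group. The difference of HFS from 6-OHDA was 0.95 (SE 0.36, confidence interval 0.14 to 1.75, adjusted p = 0.998 in limma), and 0.9, 2.21 and -0.28 within slides. It was 1.31 without 6-OHDA replicate 3 and 0.57 without 6-OHDA replicate 2, the array on which Fosl2 was not well above background.

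In DOPA and DOPA/HFS the difference of Fosl2 from 6-OHDA was 0.05 and -0.32, both within the spread between arrays (SE 0.36). DOPA/HFS differed from HFS by -1.27 (SE 0.36, adjusted p = 1 in limma), lower on every slide and without overlap. In this comparison Fos and Fosl2 were lower without overlap, 2 of 6, where 2.56% of genes were. The interaction for Fosl2 was -1.32 (SE 0.52, adjusted p = 1 in limma). The choroid plexus sum was also highest in HFS, at 16.56, 13.31 and 15.81 on replicates 1, 2 and 3, while Fosl2 was highest on replicate 2 (7.56). The part of that tissue in the Fosl2 values was not tested. The named genes most like Fosl2 over 12 arrays included Trib1, a pseudokinase gene (r = 0.905, rho 0.902).

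Fosb, the source of deltaFosB, showed no difference beyond the spread between arrays. Its signal was 6.38, 5.82 and 6.82 in 6-OHDA, 6.37, 6.48 and 6.75 in HFS, 6.58, 6.34 and 6.44 in DOPA, and 6.69, 5.73 and 7.06 in DOPA/HFS. The groups overlapped throughout, and the DOPA arrays lay within the 6-OHDA range. The difference from 6-OHDA was 0.11 in DOPA (confidence interval -0.60 to 0.83), 0.15 in DOPA/HFS (-0.57 to 0.87) and 0.20 in HFS (-0.52 to 0.92). The L-DOPA main effect was 0.03 (SE 0.23, confidence interval -0.47 to 0.54). That interval does not hold the difference of -1.46 measured for Fos, and the difference between both genes was not itself tested. The sign for Fosb in DOPA/HFS turned with outlier spots kept (-0.07) and in the deposited log2 table (-0.04), so no direction is given. Fosb ran against the brighter probe of Jund (r = -0.77, rho -0.83, and -0.52 without the 2 arrays farthest from the median of Fosb).

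Jun, the founding Jun gene and a target of Jun N-terminal kinase, did not differ between groups by more than the spread between arrays. Its signal was 10.72, 11.09 and 11.01 in 6-OHDA, 10.92, 10.89 and 10.61 in HFS, 10.80, 11.03 and 10.78 in DOPA, and 10.24, 10.99 and 10.82 in DOPA/HFS. All groups overlapped, and the lowest value was that of DOPA/HFS replicate 1. Set against 6-OHDA, the HFS group differed by -0.13, the DOPA group by -0.07 and the DOPA/HFS group by -0.25 (SE 0.20 each), and the L-DOPA main effect was -0.09 (confidence interval -0.41 to 0.22). Its 10 spots allowed a check of the array itself, since the SD over spots of 1 array was 0.04 to 0.105, below the SD of 0.251 over the 12 array means.

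Jund, the Jun protein that most cells express without stimulation, gave different pictures with its 2 probes. With the brighter probe, which stands for the gene, the signal was 15.93, 16.37 and 15.37 in 6-OHDA and 15.59, 15.09 and 14.92 in HFS. It was 15.57, 15.94 and 15.67 in DOPA and 15.30, 16.08 and 15.46 in DOPA/HFS. The HFS arrays were lower on average, with an overlap at 6-OHDA replicate 3, and the difference was -0.69 (SE 0.29, adjusted p = 0.998 in limma). The other probe gave -0.09 (SE 0.21) for the same comparison. Over 12 arrays the 2 probes correlated at r = -0.21, so no direction is given for Jund. In DOPA and DOPA/HFS the brighter probe differed from 6-OHDA by -0.16 and -0.28, and the other by -0.03 and -0.22.

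**Figure D3:**
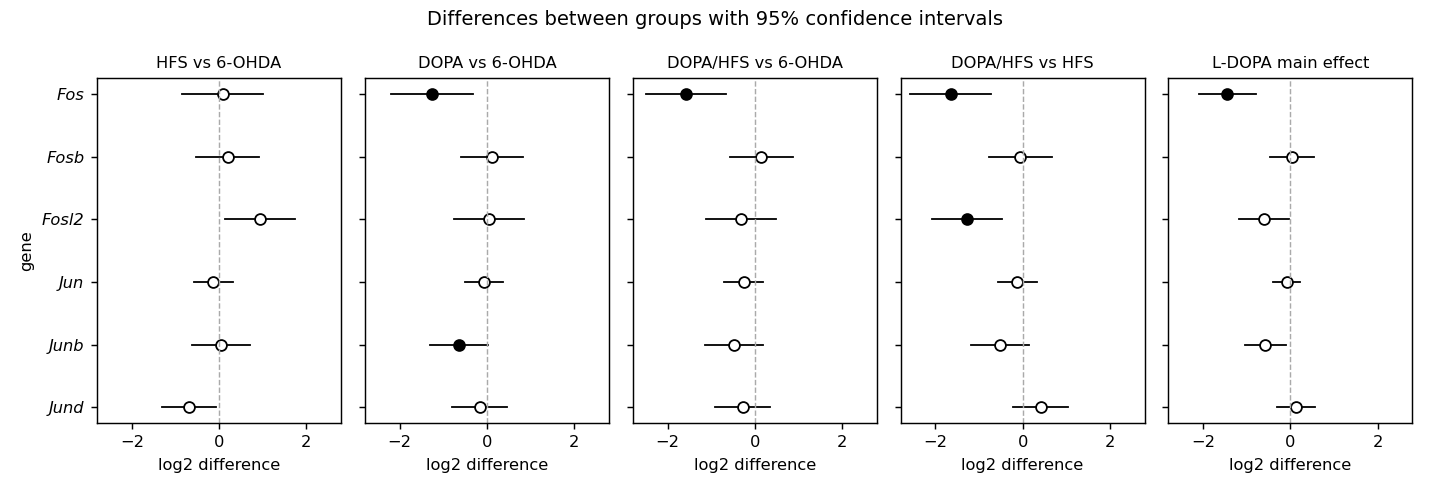
Log2 difference (x axis) of each tested member (y axis) in 5 comparisons, with 95% confidence intervals from the limma fit of 12 arrays. Filled circles mark comparisons whose arrays do not overlap and pass the fold limits. Fos is filled in the 4 panels that involve L-DOPA. In HFS vs 6-OHDA the interval, which is not adjusted, lies above 0 for Fosl2 and below 0 for Jund, both with open circles. For the L-DOPA main effect the intervals of Fos, Junb and Fosl2 lie below 0.

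Over the 6 tested members, the median difference was -0.34 for the L-DOPA main effect, against -0.02 over all genes, with 4 lower and 2 higher. Fos, Junb and Fosl2 had an unadjusted p under 0.05, 3 of 6, where 2.73% of genes did. In HFS vs 6-OHDA these were 2 of 6 (Fosl2 and Jund, 2.34% of genes), with no member free of overlap, where 1.33% of genes were lower and 1.87% higher in this way. Without 6-OHDA replicate 3, Fos and Fosl2 were higher and the brighter probe of Jund lower there without overlap, where 8.64% of genes were higher and 9.62% lower with 2 arrays against 3. The count at an unadjusted p under 0.05 was 1 of 6 in DOPA and in DOPA/HFS vs 6-OHDA (Fos, against 2.59% and 2.75% of genes). In DOPA/HFS vs HFS this count was 2 of 6 (Fos and Fosl2, 2.44%). It was 1 of 6 in the interaction (Fosl2, 1.98%), and 0 in DOPA/HFS vs DOPA and in the HFS main effect, where 3.78% and 4.36% of genes reached it. The comparisons with 6-OHDA share its 3 arrays, so they are not independent of each other.

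Other immediate early genes lay mostly on the same side as Fos for L-DOPA. Of 29 listed, 26 were tested and 0 were called in any comparison, and 22 of the 26 were lower for the L-DOPA main effect, with a median of -0.24 against -0.02 over all genes and 8 with an unadjusted p under 0.05 (2.73% of all genes). The difference for Dusp1 was -0.77 (SE 0.26, adjusted p = 1 in limma) and for Fos -1.46, below the lowest value of the list, -1.19 for Egr2, a zinc finger factor named after its value was seen. Without 6-OHDA replicate 3, the highest array for Dusp1, its L-DOPA main effect was -0.55. Its difference from 6-OHDA then went from -0.70 to -0.26 in DOPA and from -1.04 to -0.60 in DOPA/HFS. Counts and medians of the list without that array are not given. Without HFS replicate 3, the lowest HFS array for Egr2 (7.96, against 11.25 and 10.06), Egr2 passed the threshold in DOPA/HFS vs HFS. The difference was then -2.82 (adjusted p = 0.0972 in limma), against -1.92 with all arrays. The array left out was the HFS array most against the difference, so this fit is no support for a call. The share of all genes called in that fit is not given. In DOPA/HFS vs 6-OHDA, 20 of 26 were lower (median -0.39), and 7 were lower without overlap, Arc, Btg2, Dusp1, Egr1, Egr2, Egr4 and Ier2, where 1.71% of all genes were. In DOPA vs 6-OHDA, 18 were lower (median -0.15), with 2 lower and 2 higher without overlap (1.77% and 2.1% of all genes).

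Btg2 was set apart from 6-OHDA in the HFS group as well, and Nr4a3 was highest in HFS. Btg2, an anti-proliferative early gene, was lower without overlap in all 3 treated groups, with a difference of -0.73 for HFS, -0.90 for DOPA and -1.06 for DOPA/HFS (SE 0.26 each, lowest adjusted p 0.998 in limma). Its signal was 9.58, 9.95 and 10.60 in 6-OHDA, 9.48, 9.35 and 9.1 in HFS, 8.95, 9.18 and 9.30 in DOPA, and 8.56, 9.25 and 9.15 in DOPA/HFS. Its correlation with Fos over 12 arrays was r = 0.74 (0.73 after group means were removed). Without 6-OHDA replicate 3, its highest array, the difference was -0.45 for HFS, -0.62 for DOPA and -0.78 for DOPA/HFS. Nr4a3, an orphan nuclear receptor, was higher in HFS at 10.23, 9.85 and 9.1, against 8.47, 8.10 and 7.95 in 6-OHDA. It was 8.58, 8.65 and 8.88 in DOPA and 8.06, 8.34 and 8.27 in DOPA/HFS, an order of the groups with HFS on top, as for Fosl2. The difference for HFS was 1.55 (SE 0.26, adjusted p = 0.864 in limma), and the interaction was -2.04 (SE 0.36, adjusted p = 1 in limma). Without HFS replicate 3, its lowest HFS array, the difference for HFS was 1.87 (adjusted p = 0.07 in limma) and that of DOPA/HFS from HFS was -1.82 (adjusted p = 0.0896 in limma), both past the threshold. Leaving out any other array brought neither past it (lowest adjusted p 0.55 and 0.387 in limma). Since HFS replicate 3 was the HFS array most against both differences, the fit without it is no support for a call. The share of all genes called without HFS replicate 3 is not given.

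**Figure D4:**
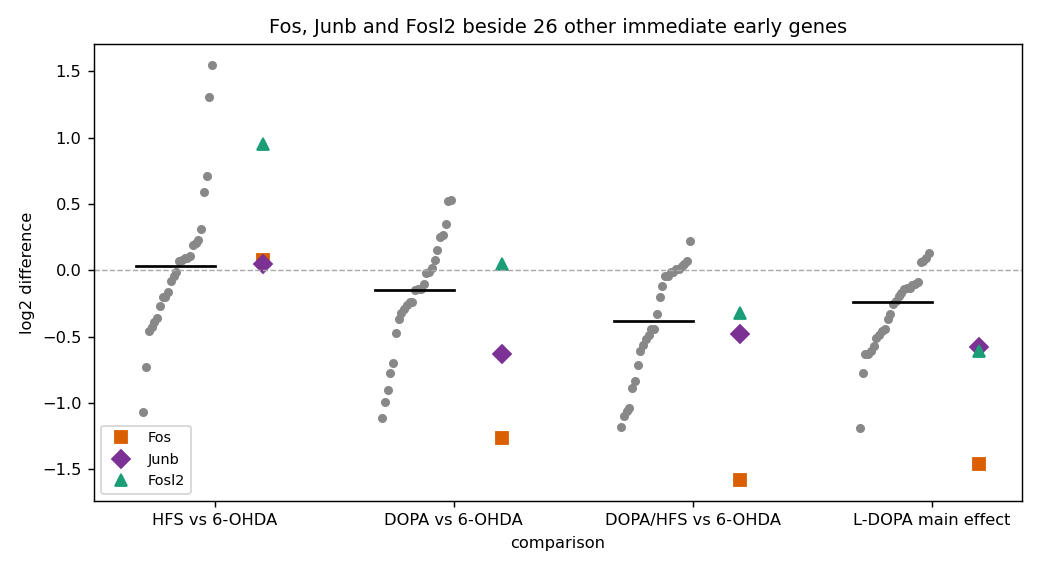
Log2 difference (y axis) in 4 comparisons (x axis) of 26 other immediate early genes (grey points in order of value, black line at their median) beside Fos, Junb and Fosl2 (coloured symbols). Fos lies at -1.26, -1.58 and -1.46 in the 3 comparisons with L-DOPA and at 0.08 for HFS.

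Of the kinases and factors upstream of Fos and Jun, 15 of 21 listed were tested. None of the 15 was called, none had an unadjusted p under 0.05, and none was free of overlap in the 3 comparisons with 6-OHDA, and their median for the L-DOPA main effect was 0.03. Of 16 dimerization partners and related factors, 11 were tested and 0 called, and Batf3, a partner of Jun proteins, was higher without overlap in both L-DOPA groups (2.1% of all genes in DOPA and 1.07% in DOPA/HFS). Batf3 was 4.90, 4.78 and 4.81 in 6-OHDA, 5.01, 5.05 and 4.32 in HFS, 5.99, 5.43 and 5.57 in DOPA, and 4.96, 5.69 and 5.55 in DOPA/HFS, with differences from 6-OHDA of 0.83 and 0.57 (SE 0.25 each) in the L-DOPA groups and an adjusted p of 1 in limma. Without L-DOPA it lay below 5.35, the signal at which Fosl2 was not well above background on 6-OHDA replicate 2. That signal is no fixed limit, since Fosl2 was well above background at 5.34 on DOPA/HFS replicate 2. On which arrays Batf3 was well above background is not given, so it may have passed the filter only through the L-DOPA groups.

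Of 19 genes known as targets of AP-1 or deltaFosB, 13 were tested and 0 called, with 10 of 13 higher for the L-DOPA main effect at a median of 0.06. Pdyn, the precursor of dynorphin in neurons of the direct pathway, differed by 1.39 in DOPA (SE 0.28, adjusted p = 0.879 in limma) and was named after its value was seen. The signal of Pdyn was 14.53, 14.83 and 14.74 in 6-OHDA and 14.68, 15.87 and 15.81 in DOPA/HFS. Without DOPA/HFS replicate 1, the L-DOPA array within the 6-OHDA range, Pdyn passed the threshold in DOPA vs 6-OHDA. It did so at the same difference (adjusted p = 0.0149 in limma), and for the L-DOPA main effect at 1.30 (adjusted p = 0.00198 in limma). The array left out went against the L-DOPA difference and widened the shared spread, so this fit is no support for a call. The share of all genes called in that fit is not given. Th, which encodes tyrosine hydroxylase, was higher without overlap in all 3 treated groups, in HFS by a margin below the second decimal. It was 5.31, 4.38 and 5.33 in 6-OHDA, 5.33, 5.36 and 5.39 in HFS, 5.98, 5.62 and 6.07 in DOPA, and 5.53, 5.50 and 6.04 in DOPA/HFS. Higher in this way were 2, 2 and 1 of the 13 in HFS, DOPA and DOPA/HFS, against 1.87%, 2.1% and 1.07% of all genes. These signals of Th are low, and on which arrays it was well above background is not given. The L-DOPA main effect on Th was 0.61 (SE 0.18, adjusted p = 1 in limma). Without 6-OHDA replicate 2, its lowest array, the difference from 6-OHDA went from 0.35 to 0.04 in HFS, from 0.89 to 0.57 in DOPA and from 0.69 to 0.38 in DOPA/HFS.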

How the data were processed

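Gene expression was measured in the dorsal striatum of 12 lesioned rats, and the labels gave the group and replicate number of each array. The intensity values are those of the scanner files the authors deposited, made with Agilent Feature Extraction 9.1, which had subtracted the background and left arrays unnormalized. The deposited log2 values of the series had been quantile normalized by the authors. No probe sequence was in the sources used here.

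Control spots (1639 of 45018) and outlier spots were left out, and log2 signals were quantile normalized and averaged over spots of a probe. Probes well above background in at least 0.4 of the arrays were kept, the probe of highest mean stood for a gene, and 20404 genes were fitted with limma 3.58.1 (lmFit, eBayes) in R 4.3.3 (jsonlite 2.0.0, and data.table in version 1.17.8), without the slide as a term. The scripts were tested on simulated data. The 7 members, the gene lists and the tests were chosen with earlier results of these data known. All members were named. Genes of the lists were given values where called, where free of overlap with 6-OHDA in at least 2 comparisons, or where compared with a member, and for likeness the 3 genes of highest r were taken per member. The study had also listed Fos and Junb as differentially expressed in DOPA vs 6-OHDA, from these same arrays but by other tests. Neither was called here in limma. Nothing in the sources used here says more than that arrays are separate rats, and their number limits the precision. Alternatives were scaling to the 75th percentile, the deposited log2 values, normexp correction (offset 50), other filters and probe rules, outlier spots kept, a replicate block, fits of only the arrays compared, other thresholds, and leaving out each array.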

Additional observations from a re-analysis of the deposited data

Results flagged for a closer look

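Fosl2 was marked because every HFS array lay above the 6-OHDA mean of 6.10, while every DOPA/HFS array lay below the DOPA mean of 6.15. Neither difference was called. HFS vs 6-OHDA was 0.95 (adjusted p = 0.998 in limma), with overlapping arrays, and DOPA/HFS vs DOPA was -0.38 (SE 0.36, confidence interval -1.18 to 0.43). The interaction was -1.32 (SE 0.52, adjusted p = 1 in limma), so the difference did not pass the correction over all genes. It ranged from -1.69 to -0.65 over the alternatives run. Groups of 3 arrays were too small for a test of single outlying arrays.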

How the results depend on the processing

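None of the 6 tested members was called under any alternative run, in any of the 8 comparisons. The number of members free of overlap was 2 in DOPA vs 6-OHDA under all alternatives. In DOPA/HFS vs 6-OHDA it was 1, and became 2 with the 75th percentile scaling, with the deposited log2 table and with outlier spots kept, and 1 to 3 when single arrays were left out. In HFS vs 6-OHDA it was 0, became 1 with the mean of all probes, and ranged from 0 to 3 when single arrays were left out. The L-DOPA main effect was between -1.63 and -0.99 for Fos, between -0.70 and -0.42 for Junb and between -0.80 and -0.30 for Fosl2.

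Differences close to 0 changed sign. With normexp correction the interaction for Junb was -0.01. In the deposited table Fosb was at -0.04 in DOPA/HFS vs 6-OHDA, -0.14 in DOPA/HFS vs DOPA, -0.04 for the L-DOPA main effect and -0.01 for the HFS main effect, and Junb was at -0.08 in DOPA/HFS vs DOPA, -0.01 for the HFS main effect and -0.14 for the interaction. With outlier spots kept Fosb was at -0.07, -0.18 and -0.08 in the first 3 of these, and the interaction for Junb was -0.04. The cause was not tested. Leaving out single arrays gave values on both sides of 0 for 22 of 48 differences. For HFS vs 6-OHDA the range was -0.27 to 0.70 for Fos, -0.06 to 0.44 for Fosb and -0.28 to 0.36 for Junb, and for the HFS main effect it was -0.29 to 0.19, -0.02 to 0.31 and -0.06 to 0.25. For DOPA vs 6-OHDA it was -0.15 to 0.35 for Fosb, -0.32 to 0.42 for Fosl2, -0.18 to 0.01 for Jun and -0.43 to 0.08 for Jund, and for DOPA/HFS vs 6-OHDA -0.13 to 0.54 for Fosb and -0.70 to 0.04 for Fosl2. For DOPA/HFS vs DOPA it was -0.25 to 0.42 for Fosb and -0.34 to 0.04 for Jun and for Jund, and for DOPA/HFS vs HFS -0.33 to 0.34 for Fosb and -0.28 to 0.10 for Jun. For the L-DOPA main effect it was -0.11 to 0.23 for Fosb and -0.17 to 0.02 for Jun, and for the interaction -0.44 to 0.22 for Fosb, -0.21 to 0.17 for Jun and -0.20 to 0.43 for Junb.

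The replicate number equals the slide. Same-number arrays of different groups correlated, after group means were removed, at -0.288 to 0.477 (median 0.112), with r over 0.1 in 10 of 18 pairs, and 5 of 12 arrays correlated best with their own number, so the numbers were not taken to pair the rats. With the replicate block no member was called and the L-DOPA main effect on Fos was -1.46 (adjusted p = 0.575 in limma). The deposited table shifted the median of all genes by -0.12 in DOPA/HFS vs 6-OHDA, and other scalings by less than 0.1.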
